A study of Arabidopsis thaliana with 16 samples.

Results

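Transcripts of HSFA2 knockout callus grown in spaceflight (FHsf) were compared with those of the same cell line grown on the ground (GHsf). The comparison rests on 6 of the 16 arrays of the series, chosen by their labels as the FHsf and GHsf arrays, 3 for each environment, and functions are described for genes with a mean signal over 100 in at least 1 of these groups, which were 12477 of 22687 probe sets tested. The FHsf cells were Arabidopsis thaliana Col-0 callus derived from hypocotyls of SALK_008978C plants, in which a T-DNA insertion disrupts HSFA2, and were fixed in RNAlater after 10 days in orbit. The GHsf cells were the same line on plates that ran 48 h behind the flight plates in a chamber that followed the conditions of the space station. Both groups are labelled as 14 days old, grew in the dark on solid medium with the auxin 2,4-D, and sat in canister BRIC B, where each plate has its own fixation unit. Wild-type Col-0 callus in spaceflight (FWt, 5 arrays from 4 plates) and on the ground (GWt, 5 arrays from 4 plates) was handled alike and is used to set the knockout response beside that of the wild type. Its arrays also entered the fit and so share in the estimate of spread behind each FHsf : GHsf p-value. Each genotype was 1 callus line kept in culture for months, so that plates replicate the environment and not the genotype, and p-values measure the spread between plates or arrays of 1 line.

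HSFA2 encodes a heat shock transcription factor that binds heat shock elements in promoters and, in Arabidopsis, prolongs the expression of chaperone genes after heat and other stresses. Callus is a mass of dividing, undifferentiated cells that depends on sugar from its medium. When sugar runs short, plant cells are known to break down protein and to burn the carbon of leucine, isoleucine and valine in mitochondria, and the genes of this pathway are standard markers of the starved state.

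Each ATH1 array gave a MAS5 signal for every probe set, a background-corrected summary of several probes of a transcript in arbitrary linear units. The signals are given in each group in the order of the replicates. FHsf replicates 1, 2 and 3 are the arrays of plates B3, B4 and B5. GHsf replicates 1 and 2 are the arrays B3 and B3-2, and replicate 3 is the array of plate B5. The arrays of FHsf replicate 1 and GHsf replicates 2 and 3 form a second series by their names. The series are thus not balanced between the environments. The titles of GHsf replicates 1 and 2 name the same plate, whereas another label puts replicate 2 on plate B4, so the 2 arrays may be repeats of 1 plate. They were kept apart and also averaged. Array medians were 90.0, 121.8 and 85.2 in FHsf, and 123.1, 111.9 and 100.2 in GHsf. The medians overlapped and differed by −12.7 (exact permutation test, two-sided p = 0.3, with 0.1 the smallest p that 3 arrays against 3 allow). The log2 ratio of 3′ to 5′ probe sets, a measure of RNA integrity and of the length of amplified product, averaged 2.84 ± 0.21 in FHsf and 2.98 ± 0.24 in GHsf over actin, GAPDH and ubiquitin (SD, n = 3 each, exact permutation test, two-sided p = 0.6). Over the 9573 probe sets with a mean over 100 in both groups, log2 signals correlated at r = 0.913 to 0.949 between FHsf arrays, 0.894 to 0.914 between GHsf arrays and 0.892 to 0.942 between the groups (across genes, which are not independent replicates), so that arrays of 1 environment were about as alike as arrays of different environments.

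The knocked-out gene was low in every knockout array. HSFA2 had a signal of 169.7, 42.0 and 34.5 in FHsf cells, against 7.38, 71.2 and 76.5 in GHsf cells. The groups overlapped, and the log2 fold change in FHsf : GHsf was 0.87 ± 0.83 (SE, limma, adjusted p = 0.88), with the sign turned when GHsf replicate 1 was left out (−0.24). In the wild type its signal ran between 5412 and 9180 in FWt and between 3345 and 6291 in GWt, above all 6 knockout arrays.

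Differences were fitted on the log2 scale with limma, a linear model that shares information on the spread across genes, and errors of fold changes are its SE. A gene was called when limma gave an unadjusted p under 0.01 and the 2 groups differed by more than 1 on the log2 scale. By this rule 342 of 22687 probe sets (1.51%) differed in FHsf : GHsf, 124 higher (0.547%) and 218 lower (0.961%), and 1 of the 342, CHR34, had an adjusted p under 0.05. Of the 342 called probe sets, 160 had means of 100 or less in both groups, where MAS5 signals are noisy. The other 182 were 1.46% of the 12477 probe sets over 100 in either group. Of these, 148 were over 100 in 1 group only: 45 higher among the 1092 probe sets over 100 in FHsf alone (4.12%), and 103 lower among the 1812 over 100 in GHsf alone (5.68%). The direction of those 148 follows from the class they are in. Only 34 of the 9573 probe sets that were over 100 in both groups were called (0.355%), 13 higher (0.136%) and 21 lower (0.219%), with median log2 fold changes of 1.26 and −1.10. Among these 9573, 412 had an unadjusted p under 0.05 (4.3%) and 0 an adjusted p under 0.05. With the 6 knockout arrays alone, where the spread comes from FHsf and GHsf only, the count was 6 in place of 34. It also rests on single arrays: it was 66 without GHsf replicate 2 and 125 without both GHsf arrays named B3, where 1 GHsf array remains and is taken to vary like the other groups. When each array was centred on its median, the count was 14, of which 12 were higher and 2 lower. Centring moved the median log2 fold change of the 9573 probe sets to 0.17, against −0.02 as deposited.

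**Figure D1:**
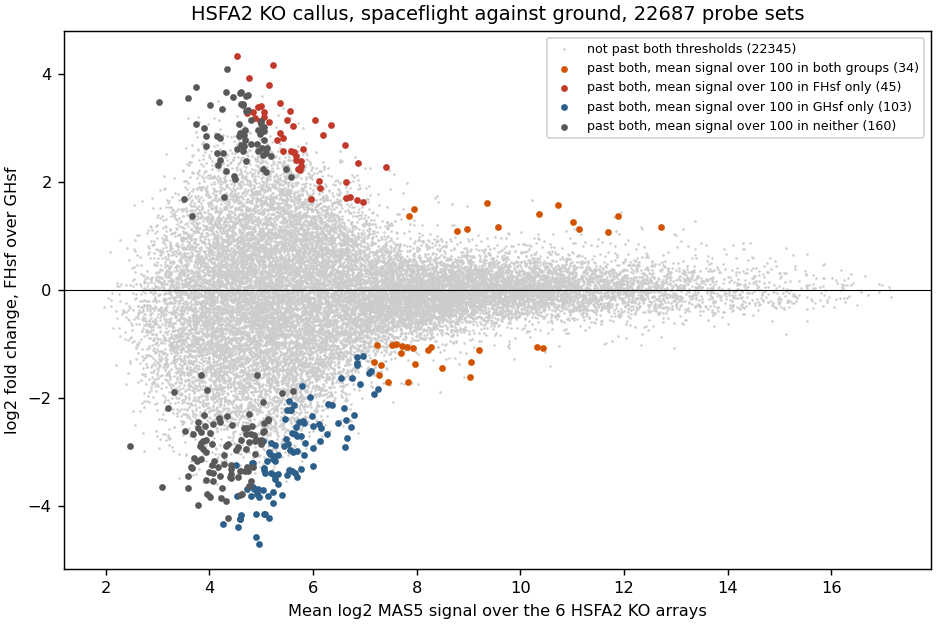
Log2 fold change in FHsf : GHsf (y axis) against mean log2 signal of the 6 knockout arrays (x axis) for 22687 probe sets, with called probe sets coloured by the groups in which their mean signal passed 100. Called probe sets lie mostly at low signal, and 34 of 342 were over 100 in both groups.

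Among the genes expressed in both environments, 6 of the 13 that rose also passed with the GHsf arrays named B3 averaged, had a single locus and did not overlap between groups. AT1G62290, annotated as an aspartic protease, had a signal of 989, 1188 and 1249 in FHsf and 495, 420 and 628 in GHsf. Its log2 fold change was 1.16 ± 0.29 (SE, limma, adjusted p = 0.45), and it was the only one of the 13 called with each of the 6 arrays left out in turn. GSTU25, a tau glutathione transferase of a family that conjugates glutathione to toxic compounds, had 503, 339 and 426 in FHsf and 159, 209 and 98.1 in GHsf, a log2 fold change of 1.49 ± 0.37. AT4G02550, of unknown function, had 655, 799 and 787 in FHsf and 355, 438 and 251 in GHsf (log2 fold change 1.13 ± 0.29). Calls of both of these genes were lost only without GHsf replicate 3 among the single arrays left out. NIT4, a nitrilase that degrades β-cyanoalanine in cyanide detoxification, had 274, 591 and 317 in FHsf and 105, 164 and 171 in GHsf (log2 fold change 1.37 ± 0.37), with FHsf replicate 2 the highest. The call of NIT4 was lost without that array or without GHsf replicate 1. SOT12, a sulfotransferase known to act on salicylate and brassinosteroids, had 4774, 4706 and 4955 in FHsf and 1901, 3817 and 1655 in GHsf. Its log2 fold change of 1.07 ± 0.32 passed in only 1 of the 6 fits with an array left out, that without GHsf replicate 2, the highest GHsf array. The sixth gene, ALDH6B2, is described with its pathway below.

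The other side held 21 genes that fell, and 10 of them are described here by the same rule. HMT2, a homocysteine S-methyltransferase of the methionine cycle, had 157, 134 and 179 in FHsf and 380, 402 and 417 in GHsf. The groups lay far apart, and the log2 fold change was −1.36 ± 0.29 (SE, limma, adjusted p = 0.35). ENODL17, an early nodulin-like protein, had 361, 222 and 338 in FHsf and 1076, 593 and 1208 in GHsf (log2 fold change −1.61 ± 0.40). EXLA1, an expansin-like protein, had 393, 246 and 388 in FHsf and 751, 821 and 988 in GHsf (log2 fold change −1.34 ± 0.31). HMT2, ENODL17 and EXLA1 were called with each of the 6 arrays left out in turn, and HMT2 also after median centring, which ended the calls of the other 9. CYCD3;2, a D-type cyclin that drives cells from G1 into S phase, had 483, 343 and 388 in FHsf and 771, 903 and 917 in GHsf, a log2 fold change of −1.10 ± 0.26, lost only without FHsf replicate 2 among the single arrays. PGM (AT1G78050), annotated as a phosphoglycerate mutase, had 139, 57.7 and 111 in FHsf and 202, 277 and 548 in GHsf, and was likewise lost without FHsf replicate 2, the lowest FHsf array. AT5G13980, an α-mannosidase, had 258, 139 and 286 in FHsf and 714, 532 and 540 in GHsf. The remaining 4 had log2 fold changes of −1.07 to −1.33: the acyl-activating enzyme gene AAE1, the bromodomain gene GTE2, AT1G17620 and AT1G58230. Each of these 4 and AT5G13980 lost its call without at least 2 of the single arrays. Adjusted p-values of the 16 genes of the rule ran between 0.35 and 0.59.

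**Figure D2:**
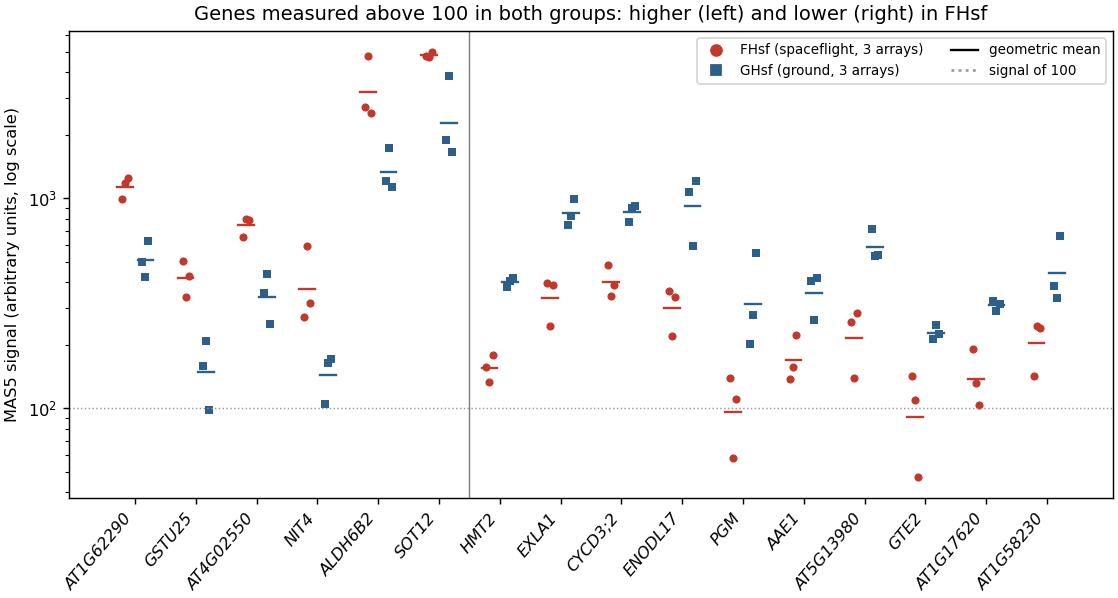
MAS5 signal (y axis, arbitrary units on a log scale) of the 16 genes chosen by the rule among those over 100 in both groups, with a point for each of the 3 FHsf arrays (left) and the 3 GHsf arrays (right) of a gene and a line at their geometric mean. The FHsf and GHsf points do not overlap for any of them, which the rule required.

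The gene group with most calls was that of starvation and branched-chain degradation. Of its 37 measured members, 34 were over 100 in both groups, and among these 5 rose (0.136% of all probe sets of this signal class rose), 0 fell and 29 did not pass. In the class as a whole 48% of probe sets had a log2 fold change above 0, against 27 of these 34, whose median was 0.39. The groups did not overlap, with FHsf higher, for 14 of the 34 (6.88% in the class) and, with FHsf lower, for 1. The study named this theme from these arrays, so the list is not independent evidence of its direction. The list median of the signal was 2152, 2601 and 2537 in FHsf, against 1217, 1773 and 1323 in GHsf. The median log2 fold change stayed above 0 in every fit with an array left out, at 0.19 without GHsf replicate 1 and 0.33 to 0.50 without any other. The count of 5 calls was 0 without FHsf replicate 2 or GHsf replicate 1, 1 without FHsf replicate 3 or GHsf replicate 3, and 1 with the GHsf arrays named B3 averaged. With the 6 knockout arrays alone the count was also 0. It was 2 with a block on hardware position and 3 with the series of array names as a term. With an offset of 32 it was 7, and with a trended prior 8.

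The members are taken in the order of the pathway. BCAT-2, a branched-chain aminotransferase of the first step, had 5344, 7562 and 6702 in FHsf and 1619, 4029 and 2109 in GHsf. Its log2 fold change of 1.43 ± 0.48 missed the call by its p. The next step is the branched-chain keto acid dehydrogenase complex. DIN4, its E1β subunit, had 4816, 7098 and 6469 in FHsf and 1515, 3256 and 2656 in GHsf (log2 fold change 1.36 ± 0.42). BCE2, its E2 subunit, had 8351, 11952 and 10036 in FHsf and 3223, 6047 and 4594 in GHsf (log2 fold change 1.16 ± 0.37). Both subunits rose by the call and had no overlap between the groups. AT1G21400, annotated as a further subunit of this complex and named here after its values were seen, is outside the list and had 2541, 3527 and 2845 in FHsf and 711, 1390 and 971 in GHsf (log2 fold change 1.58 ± 0.43, called). IVD, isovaleryl-CoA dehydrogenase of leucine breakdown, had 14443, 18647 and 15945 in FHsf and 7636, 10308 and 9711 in GHsf. It reached an unadjusted limma p of 0.0053, but its log2 fold change of 0.83 ± 0.24 was under the limit. MCCA and MCCB, the subunits of methylcrotonyl-CoA carboxylase in the leucine branch, had log2 fold changes of 0.83 and 1.16 without a call, and for each the groups did not overlap. ALDH6B2, methylmalonate-semialdehyde dehydrogenase of the valine branch, had 2729, 4750 and 2551 in FHsf and 1217, 1732 and 1136 in GHsf. It rose by 1.26 ± 0.35 on the log2 scale and was the only member of the list still called with the GHsf arrays named B3 averaged. CHY1, a hydroxyisobutyryl-CoA hydrolase of the same branch, had a log2 fold change of −0.07.

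Starvation markers outside the amino acid pathway were mixed. BGAL4, a β-galactosidase, had 1214, 3229 and 2537 in FHsf and 562, 959 and 981 in GHsf, a called log2 fold change of 1.41 ± 0.42. SEN1, a dark- and senescence-induced gene, had 782, 1686 and 1160 in FHsf and 302, 519 and 339 in GHsf (1.62 ± 0.51, called). ASN1, the dark-induced asparagine synthetase, had 1911, 1983 and 3046 in FHsf and 636, 1687 and 1243 in GHsf. The 2 groups of ASN1 did not overlap, yet its log2 fold change of 1.04 ± 0.51 missed the call. GDH2, a glutamate dehydrogenase subunit, had a log2 fold change of 0.76 and its partner GDH1 one of 0.04. KIN10, the catalytic subunit of the starvation kinase SnRK1, had −0.04 on the same scale, and DYL1, a dormancy gene, 0.10. Exordium-like EXL2 had a log2 fold change of −0.72 and EXL4 one of 0.50. Beyond this list, ICL, the isocitrate lyase of the glyoxylate cycle, had 39322, 58512 and 44916 in FHsf and 19211, 37132 and 28888 in GHsf, a log2 fold change of 0.78 ± 0.30 without a call. PPDK, which makes phosphoenolpyruvate from pyruvate, had 4720, 5475 and 5999 in FHsf and 1346, 3736 and 3162 in GHsf (1.1 ± 0.41, not called). Glycolysis, citrate cycle and respiration as a group had 52 members over 100 in both environments, of which 0 were called and 34 were below 0, with a median of −0.14.

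**Figure D3:**
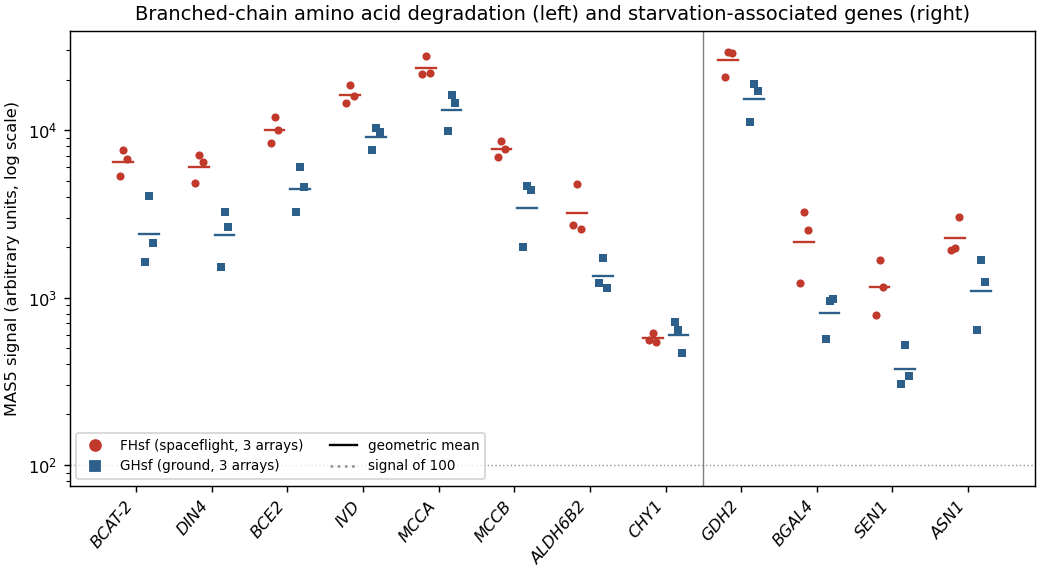
MAS5 signal (y axis, arbitrary units on a log scale) of 12 genes of branched-chain amino acid degradation or starvation, with a point for each of the 3 FHsf arrays (left) and the 3 GHsf arrays (right) and a line at their geometric mean. All 3 FHsf points lie above the GHsf points for every gene shown but CHY1. GHsf replicate 2 is the highest GHsf array for BCAT-2, DIN4, BCE2, IVD, ALDH6B2, SEN1 and ASN1, but not for BGAL4.

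Genes that loosen the cell wall for growth had 1 call. Over all 56 measured, 30 had a log2 fold change below 0 and 26 above 0, with a median of −0.05. Over all probe sets tested 54.1% were below 0 and the median was −0.07. Among cell wall loosening genes, 26 of 56 measured were over 100 in both groups, where 17 had a log2 fold change below 0 (52% in the class) and the median was −0.48, and it stayed below 0 with any array left out, at −0.26 without GHsf replicate 3, −0.30 without FHsf replicate 2 and −0.37 to −0.52 otherwise. Only EXLA1 was called (0.219% of the class fell), and 3 fell without FHsf replicate 1 or without FHsf replicate 3. Of the 26, 7 lay below all GHsf arrays in every FHsf array (8.67% in the class). Another 3 lay above all GHsf arrays in every FHsf array (6.88% in the class). GASA1, a gibberellin-regulated cell wall peptide gene, had 894, 363 and 671 in FHsf and 1488, 1165 and 1783 in GHsf (log2 fold change −1.28 ± 0.42). EXO, of the exordium family that promotes cell expansion, had 705, 486 and 715 in FHsf and 1020, 1060 and 1806 in GHsf (−1.0 ± 0.39). XTH15, a xyloglucan endotransglucosylase/hydrolase, which remodels the xyloglucan of the wall, had 261, 191 and 267 in FHsf and 543, 459 and 481 in GHsf (−1.05 ± 0.46). These 3 genes did not overlap between the groups and missed the call. Other members had values on the opposite side, such as the expansin EXPA1 with 274, 255 and 244 in FHsf and 203, 191 and 124 in GHsf.

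In the auxin list, 42 of 75 measured genes were over 100 in both groups, with a median of −0.07 that ran from 0.005 without FHsf replicate 2 to −0.16 without GHsf replicate 1. The auxin response factor MP had 231, 258 and 351 in FHsf and 384, 463 and 597 in GHsf without a call. In the cell cycle list, 3 of 64 measured genes fell (0.961% of all probe sets fell) and 0 rose: CYCD3;2, the A-type cyclin CYCA3;1 and the cyclin-dependent kinase inhibitor ICK3. CYCA3;1 had 43.2, 7.69 and 5.93 in FHsf and 186, 63.2 and 93.4 in GHsf, and ICK3 stayed at or under 100 on average in both. These 2 genes are known to act in opposite senses on the cycle. Only 1 gene of the list fell without FHsf replicate 2, FHsf replicate 3, GHsf replicate 1 or GHsf replicate 3. The 20 members over 100 in both groups had a median of −0.24 (−0.09 without GHsf replicate 1, −0.42 without GHsf replicate 3), and RBR1, the retinoblastoma-related repressor, had 173, 106 and 137 in FHsf and 346, 155 and 268 in GHsf without a call.

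Genes of cytosolic ribosomal proteins, which build the translation machinery, had small log2 fold changes below 0 in most members and no call. Of 111 members over 100 in both groups, 104 had a log2 fold change below 0 (52% in the class), the median was −0.24, and 53 lay below all GHsf arrays in every FHsf array (8.67% in the class). On the array level, the list median of the signal was 8277, 7872 and 8540 in FHsf and 11026, 8952 and 9356 in GHsf. These differences were of the size of the shift that centring makes: with each array centred on its median, 71 of the 111 were below 0 and the list median was −0.05, against 0.17 for the whole class. The list median thus lay below that of the class by both scalings. Members with the smallest p were AT5G60670, a 60S protein L12 gene, with 3106, 1651 and 2350 in FHsf and 5631, 3561 and 4622 in GHsf (−0.98 ± 0.34), and AT2G32060, a 40S protein S12 gene, with 4558, 4774 and 4845 in FHsf and 8138, 6348 and 6433 in GHsf (−0.55 ± 0.22). An unadjusted p under 0.05 was reached by 7 of the 111, all lower (2.26% of the class were lower by that p). Ribosomal proteins are encoded by families of similar genes, and signals of near-identical copies may be shared between probe sets.

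Heat shock genes, the known targets of HSFA2 and its relatives, had no call in the knockout cells. Of 51 measured members 41 were over 100 in both groups, 31 of them with a log2 fold change above 0 (48% in the class, median 0.22), and 0 were called, with 3 higher at an unadjusted limma p under 0.05 (2.05% in the class). Without GHsf replicate 2, 3 rose and the median was 0.40, and without GHsf replicate 1, 1 rose. GolS1, galactinol synthase, known as a target of heat shock factors, had 3964, 5628 and 4278 in FHsf and 2281, 3644 and 1910 in GHsf (0.86 ± 0.31). AT5G48570, a peptidyl-prolyl isomerase, had 13552, 15002 and 11497 in FHsf and 3670, 9947 and 6079 in GHsf (1.13 ± 0.41), and HSP23.6-MITO, a mitochondrial small heat shock protein, had 27091, 27132 and 26680 in FHsf and 10752, 23177 and 13134 in GHsf (0.86 ± 0.35). In these 3 genes the groups did not overlap and GHsf replicate 2 was the closest to FHsf. HSP101, the disaggregase needed for thermotolerance, had a log2 fold change of 0.12, HSP90.1 one of 0.10, and the heat shock factor HSFA7A one of 0.23.

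**Figure D4:**
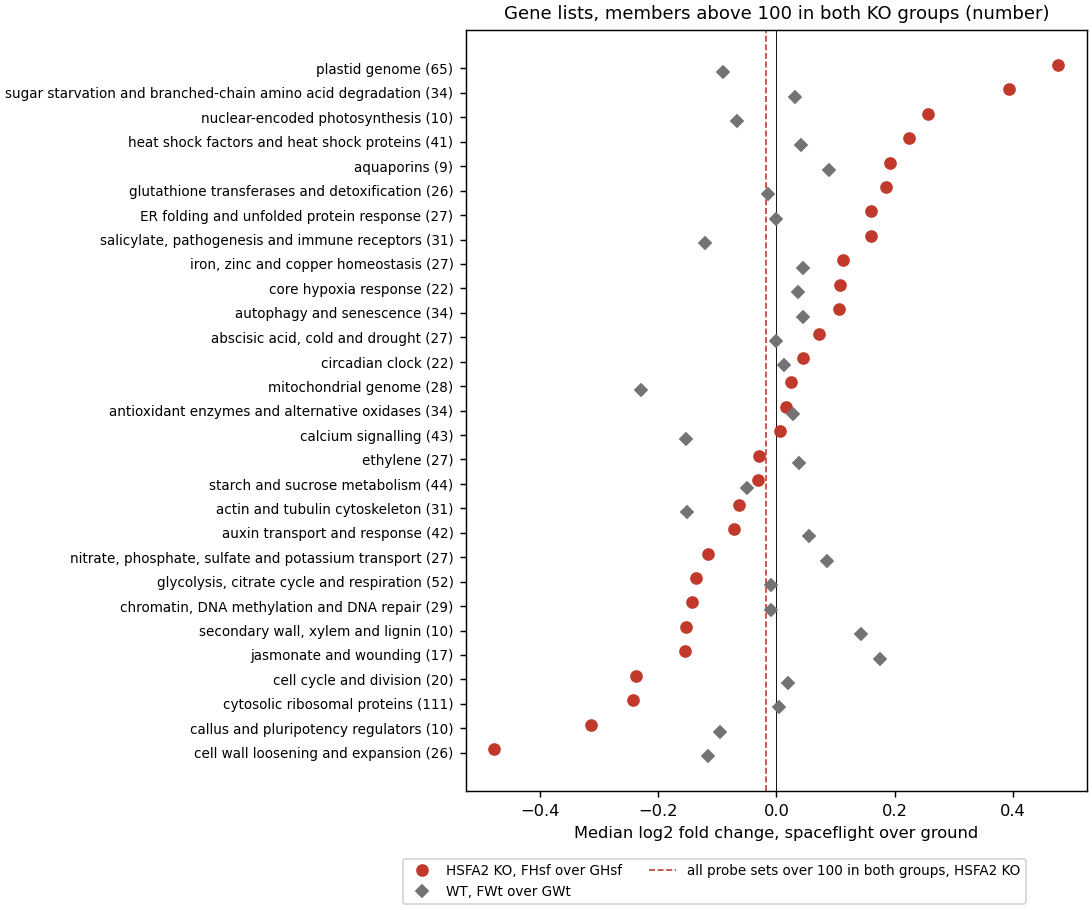
Median log2 fold change (x axis) of each of the 28 function lists and of the callus regulators (y axis, with its number of members over 100 in both knockout groups), in HSFA2 KO cells (circles, FHsf : GHsf) and WT cells (diamonds, FWt : GWt), with a dashed line at the knockout median of all probe sets of that class. In HSFA2 KO cells the medians shown run from −0.48 for cell wall loosening to 0.48 for the plastid genome, whose value rests on FHsf replicate 2.

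Transcripts of the plastid genome, which encode part of the photosynthetic apparatus and of the plastid's own ribosomes, were set by 1 array. The list median of the signal was 320, 1336 and 271 in FHsf and 434, 333 and 224 in GHsf, so FHsf replicate 2 stood apart. With all arrays 57 of 65 members over 100 in both groups were above 0 and the median log2 fold change was 0.48; without FHsf replicate 2 these were 33 of 65 and 0.02, and without GHsf replicate 3 they were 45 of 65 and 0.28. Without either of the other FHsf arrays the median was higher, at 0.75 and 0.87. A single member was called, ATCG01100, annotated as an NADH dehydrogenase subunit, with 167, 570 and 163 in FHsf and 132, 14.7 and 30.3 in GHsf, and it lost the call without FHsf replicate 2, GHsf replicate 2 or GHsf replicate 3. Mitochondrial genome transcripts had a median of 0.02 over 28 members and 0 calls, and this median was −0.24 without FHsf replicate 2 and 0.27 without FHsf replicate 1. Of 46 measured nuclear genes of photosynthesis, 10 were over 100 in both groups, 9 of these above 0 (48% in the class) with a median of 0.26 (0.014 without GHsf replicate 1). None of the 10 was called, and 2 of the 46 fell (0.961% of all probe sets fell), with 0 without FHsf replicate 2 or without GHsf replicate 2: ATPD, the δ subunit of the chloroplast ATP synthase, with 31.6, 10.9 and 34.9 in FHsf and 127, 158 and 94.4 in GHsf, and PSBO1, whose means were at or under 100. The chlorophyll-binding protein gene LHCA4 had 542, 700 and 697 in FHsf and 361, 347 and 542 in GHsf without a call.

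Among genes over 100 in FHsf only, the 6 with the smallest p by the rule were called with each of the 6 arrays left out. Of all 45 genes called in this class, 10 were. The choice by smallest p favours genes that keep the call, so nothing is read from this. AT4G17100, annotated as serine protease-like, had 106, 118 and 128 in FHsf and 11.5, 27.8 and 23.8 in GHsf. AT2G34550 had 144, 130 and 143 in FHsf and 32.7, 11.3 and 32.4 in GHsf. The other 4, AT5G06540, AT1G23650, AT1G21810 and AT4G12380, had log2 fold changes of 3.1 to 4.33, and for the files' annotation AT1G23650 and AT4G12380 were unknown or hypothetical proteins. Among genes over 100 in GHsf only, AT1G05280, a hypothetical protein, had 23.2, 11.2 and 20.4 in FHsf and 152, 215 and 158 in GHsf (log2 fold change −3.31 ± 0.51). The other 5 by the same rule were CHR34, a chromatin remodeller, MFDX1, a mitochondrial ferredoxin, YSL8, a metal-nicotianamine transporter family member, BGAL1, a β-galactosidase, and AT4G01570, with log2 fold changes of −4.57 to −2.23. CHR34 alone had an adjusted p under 0.05 (limma, adjusted p = 0.032), with 4.18, 6.05 and 9.07 in FHsf and 118, 127 and 207 in GHsf. Signals this far under 100 carry large relative errors, so the size of these folds is poorly fixed.

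Calls in other lists were of at most 2 members in each direction. Aquaporins, which carry water across membranes, had 1 call in each direction among 25 measured (0.547% higher and 0.961% lower over all probe sets). GAMMA-TIP, of the vacuolar membrane, had 128, 141 and 134 in FHsf and 9.54, 30.2 and 12.1 in GHsf, and PIP2;4, of the plasma membrane, had 8.69, 33.5 and 24.7 in FHsf and 138, 99.4 and 74.0 in GHsf. The call of GAMMA-TIP was lost without FHsf replicate 2, GHsf replicate 1 or GHsf replicate 3, and that of PIP2;4 in all fits with an array left out but the one without FHsf replicate 2. Calcium signalling likewise had 1 call up, the glutamate receptor-like channel ATGLR1.2, and 1 down, the calcium pump ACA9, of 74 measured, against the same background. The circadian list had 1 call up of 29 measured (0.547% of all probe sets rose). This was CDF3, a DOF transcription factor, with 137, 199 and 120 in FHsf and 25.7, 22.6 and 5.87 in GHsf. In the list of abscisic acid, cold and drought 2 of 51 measured fell (0.961% of all probe sets fell). The cold-responsive gene COR15B had 55.0, 24.5 and 46 in FHsf and 132, 213 and 186 in GHsf and fell, as did the abscisic acid phosphatase gene ABI2 at or under a mean of 100. Of 90 measured genes of starch and sucrose metabolism 1 fell (0.961% of all probe sets fell). This was ISA1, the starch debranching isoamylase, with 126, 30.1 and 131 in FHsf and 233, 266 and 195 in GHsf. Of 51 measured cytoskeleton genes 1 rose (0.547% of all probe sets rose). This was MAP70-2, a microtubule-associated protein, with 104, 120 and 142 in FHsf and 18.7, 24.8 and 22.3 in GHsf. ATGLR1.2, ACA9, ISA1 and MAP70-2 each lost the call with the GHsf arrays named B3 averaged, and CDF3, COR15B and ATPD each without 2 or 3 single arrays.

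Among defence genes 2 of 56 rose (0.547% of all probe sets), the pathogenesis-related PRB1 and the helper immune receptor ADR1-L3, both with means of 100 or less in both groups, and 0 fell. NPR1, the salicylate receptor, had 2270, 2267 and 2094 in FHsf and 1195, 1842 and 1375 in GHsf, a log2 fold change of 0.61 ± 0.26 that was not called. In the metal list of 61 genes 2 rose and 1 fell (0.547% and 0.961% over all probe sets). The transporter YSL6 and the iron-deficiency factor BHLH101 rose at or under 100, and YSL8 fell. MT2B, a metallothionein, had 28838, 22494 and 30528 in FHsf and 64394, 38924 and 42205 in GHsf without a call. Glutathione transferases had GSTU25 as the only call of 38 measured, and autophagy and senescence had SEN1 as the only call of 40. Both were higher (0.547% of all probe sets rose). Chromatin and DNA repair had 2 lower of 67, CHR34 and the mismatch repair gene PMS1 (0.961% lower over all probe sets). No gene was called in the lists for secondary wall and lignin, jasmonate, hypoxia, ER folding, ethylene, antioxidant enzymes, nutrient transport, or glycolysis and respiration. At an unadjusted limma p under 0.05, 1 was higher and 1 lower of 44 measured genes of secondary wall and lignin. The same counts held of 22 for hypoxia, 31 for ER folding and 48 for antioxidant enzymes. Ethylene had 1 higher of 35, nutrient transport 1 higher and 2 lower of 60, and glycolysis and respiration 3 higher of 61. The jasmonate list had 0. Over all probe sets tested 2.75% were higher and 4.14% lower by that p. Examples are PDC2, a pyruvate decarboxylase of fermentation, with 692, 786 and 492 in FHsf and 487, 388 and 285 in GHsf, and MDHAR (AT3G09940), a monodehydroascorbate reductase, with 419, 565 and 559 in FHsf and 137, 269 and 299 in GHsf. Over the 28 function lists, 30 of 1471 probe sets were called (2.04%, against 1.51% of all tested), 15 in each direction (1.02% each, against 0.547% higher and 0.961% lower).

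Callus regulators and markers of differentiated cells were compared to check the tissue. STM, a homeobox gene that keeps shoot meristem cells undifferentiated, rose with 127, 307 and 326 in FHsf and 7.84, 118 and 24.5 in GHsf, and lost the call in 4 of the 6 fits with an array left out. RR1, the cytokinin response regulator ARR1, had 451, 318 and 579 in FHsf and 150, 221 and 289 in GHsf (log2 fold change 1.04 ± 0.34, not called). SCR, a root stem cell regulator, had 258, 316 and 35.9 in FHsf and 673, 297 and 537 in GHsf. These values went in different directions, and the median of the 10 callus regulators over 100 in both groups was −0.31 (0.076 without FHsf replicate 3, −0.10 without GHsf replicate 3 and −0.46 without GHsf replicate 1). Of 82 measured markers of leaf mesophyll, root epidermis and hair, xylem, phloem, shoot epidermis and guard cells, endodermis, and embryo and seed, 24 were over 100 in at least 1 group and 9 in both. Their summed signal was 5039, 6955 and 5511 in FHsf and 8031, 5997 and 6727 in GHsf, with overlap. Of the 82, 37 had a log2 fold change above 0 and 45 below 0. Their median was −0.06, against −0.07 over all probe sets tested. By the call 2 of the 82 fell and 0 rose (0.961% and 0.547% over all probe sets). These 2 were RHD6, a root hair factor, and the phloem lectin PP2-A1. PP2-A1 had 11.3, 7.03 and 19.8 in FHsf and 199, 143 and 67.2 in GHsf. Both calls were lost with the GHsf arrays named B3 averaged. In whole plates of cells, fewer cells of a type and less RNA per cell cannot be told apart, and the part of marker genes in the other gene groups was not tested.

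The lists were also set beside those of wild-type callus. In FWt : GWt, 183 probe sets were called (0.807%), 25 of them in the 9573 over 100 in both knockout groups (0.261%). Over the same members, the median log2 fold change was 0.39 in the knockout and 0.03 in the wild type for sugar starvation and branched-chain degradation, −0.48 and −0.12 for cell wall loosening, −0.24 and 0.00 for ribosomal proteins, and 0.48 and −0.09 for the plastid genome. These 4 lists were picked for their knockout medians. Others lay farther from 0 in the wild type, with 0.02 in the knockout and −0.23 in the wild type for the mitochondrial genome, 0.01 and −0.15 for calcium signalling, and −0.16 and 0.18 for jasmonate. The difference between the responses was tested for single genes as an interaction, at the thresholds used for calls. It was called for 231 probe sets (1.02%), for 18 of the 9573 (0.188%), and at an adjusted p under 0.05 for CHR34 alone. Of the 34 genes called in the knockout and over 100 in both groups, 4 were also called in the interaction, and 22 had an unadjusted interaction p under 0.05 (1.95% in the class). The 34 were chosen on the knockout contrast, which is part of the interaction, so nothing is read from these shares. The 4 included CYCD3;2, whose log2 fold change was −1.10 in the knockout and 0.42 in the wild type (interaction −1.53 ± 0.34, limma, adjusted p = 0.63), HMT2 with −1.36 and 0.06, AAE1 with −1.07 and 0.31, and AT4G02550 with 1.13 and −0.14. By contrast SOT12 had 1.07 in the knockout and 0.99 in the wild type, EXO −1.0 and −0.96, and ENODL17 −1.61 and −0.94. The interaction of SOT12 was 0.08 ± 0.43. All knockout plates were in canister BRIC B and wild-type plates in both canisters. With only the 2 wild-type plates per environment in BRIC B, an alternative chosen after seeing the data, the interaction was called for 269 probe sets, 82 of them among the 231. CYCD3;2 alone of the 4 stayed called, and the adjusted p of CHR34 was 0.18 (limma). The sign of the interaction was kept by all 34. Each genotype was 1 line, so genotype and line cannot be told apart.

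**Figure D5:**
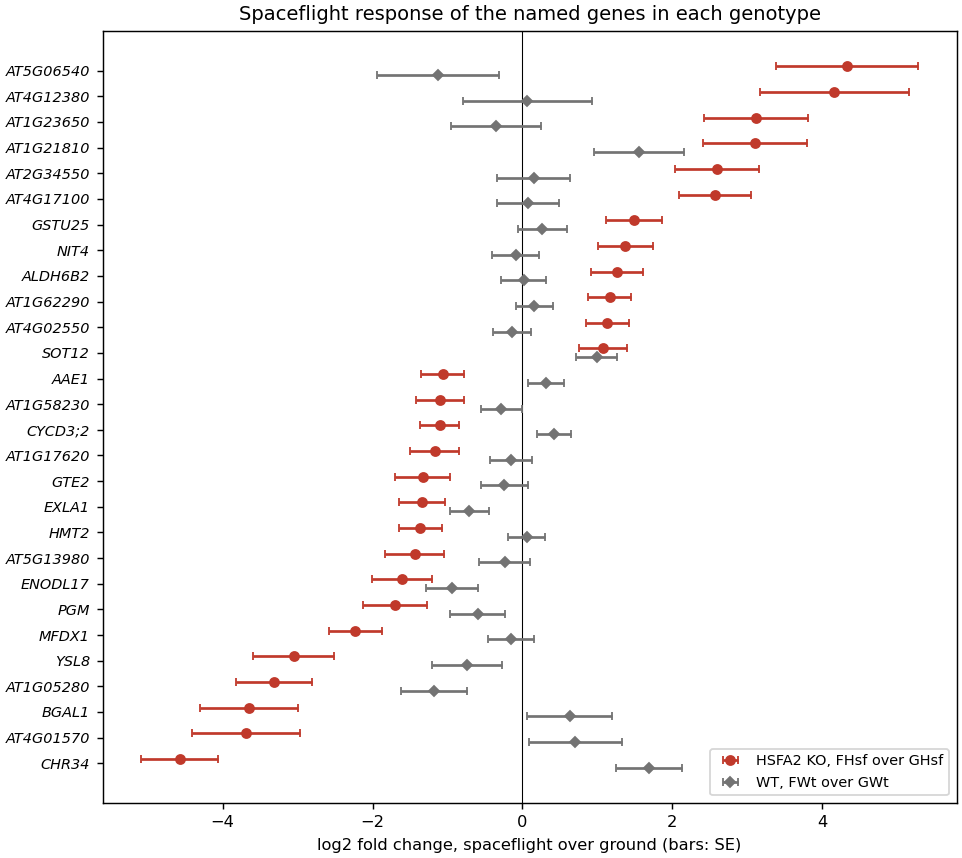
Log2 fold change of spaceflight over ground (x axis, bars are the SE of the fit) for 28 genes named by rule (y axis), in HSFA2 KO cells (circles, FHsf : GHsf) and WT cells (diamonds, FWt : GWt). The genes were chosen for their knockout values, and the wild-type values of most lie nearer to 0, with SOT12 at 1.07 in the knockout and 0.99 in the wild type.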

How the data were processed

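RNA of callus plates was amplified with the NuGEN Ovation Pico WTA system and hybridized to Affymetrix ATH1 arrays. The deposited intensity values were linear MAS5 signals that Affymetrix Expression Console had scaled to a common trimmed mean. The log2 fold changes and the p-values that the authors deposited for their own comparisons were not used, and only the probe set, locus and description columns of that table were read. Symbols came from the locus tags of a RefSeq table.

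No offset was added before log2 was taken. Plate A1 of the wild type had 2 arrays in each environment, and their mean was used, so 14 units remained. All 4 groups were fitted with lmFit and eBayes of limma 3.58.1 (R 4.3.3) with 1 coefficient per group, 10 residual and 1.65 prior degrees of freedom, over 22687 of 22810 probe sets. The residual SD had a median of 1.14 (log2), which with 3 arrays per group limits the precision. A call needed an unadjusted p under 0.01 together with a change of more than 1 on the log2 scale, and Benjamini-Hochberg adjusted p-values over all probe sets tested are given beside. The call was tested on simulated data with 200 of 22687 probe sets changed in FHsf : GHsf. These 200 were drawn only from probe sets with a mean GHsf signal over 100, averaged on the log2 scale. The call recovered 33.5% of 2-fold and 84.5% of 4-fold changes, with 251 and 234 false calls. Recovery at lower GHsf signal was not tested, so these rates do not hold for all probe sets.

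The genes named were HSFA2; up to 10 higher and 10 lower of single-locus probe sets over 100 in both groups that were called, also with the GHsf arrays named B3 averaged, and did not overlap; up to 6 each way of those over 100 in 1 group; and up to 4 members of each list with the smallest p. Further list members were given for their place in a pathway. The groups, genes and lists (28 of functions and 8 of markers, 1441 of 1567 symbols matched) were chosen with earlier results of these data known, so they are described by counts and medians without a test. The alternatives were averaging the GHsf arrays named B3, the 6 knockout arrays alone, other scalings, an offset of 32, a trended prior, the series of array names as a term, a block on hardware position, and leaving out each array; leaving out both GHsf arrays named B3 was also tried, and, after the results were seen, the interaction with the wild-type plates of canister BRIC B alone. Promoter motifs were not analysed here. The result of 1 gene of the auxin list is not reported here.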

Additional observations from a re-analysis of the deposited data

Results flagged for a closer look

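For 19 of the 159 named genes the interaction of genotype and spaceflight passed the thresholds used for calls, with an unadjusted limma p under 0.01. Over all probe sets 231 of 22687 passed (1.02%). The named genes were chosen mostly on the knockout contrast, which is part of the interaction, so nothing is read from the share. The values are the log2 fold change in FHsf : GHsf minus that in FWt : GWt. Only CHR34 at −6.26 had an adjusted p under 0.05 (limma, adjusted p = 0.022), with log2 fold changes of −4.57 in the knockout and 1.69 in the wild type. The others had adjusted p-values of 0.53 to 0.97.

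Differences below 0 were those of ACA9 (−5.09), AT4G01570 (−4.40), BGAL1 (−4.27), EB1C (−4.02), COR15B (−2.63), YSL8 (−2.31), AT1G05280 (−2.13), MFDX1 (−2.07), CYCD3;2 (−1.53), HMT2 (−1.42) and AAE1 (−1.38). EB1C, a microtubule plus-end protein, was not called in the knockout, where its log2 fold change was −1.82, against 2.2 in the wild type. Differences above 0 were those of AT5G06540 (5.45), STM (4.35), AT4G12380 (4.1), AT1G23650 (3.47), AT4G17100 (2.49), AT2G34550 (2.45) and AT4G02550 (1.27). The signs of the responses were opposite in the 2 genotypes for most of the 19, so this does not mark out single genes. Examples are ACA9, with −2.76 in the knockout and 2.33 in the wild type, and STM, with 3.04 in the knockout and −1.30 in the wild type. In others the wild-type value was near 0, as in HMT2 with −1.36 in the knockout and 0.06 in the wild type. All but EB1C were called in the knockout, and all 19, EB1C among them, had been named for a small knockout p. A large difference from the wild type is thus partly built into the choice. CYCD3;2, HMT2, AAE1 and AT4G02550 were over 100 in both knockout groups. With only the wild-type plates of canister BRIC B, the signs of all 19 differences were kept and 9 were called.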

How the results depend on the processing

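With 3 arrays in a group, 2 of which may be 1 GHsf plate, and a spread that is wide at low signal, counts depended on single arrays. At an adjusted p under 0.05, FHsf : GHsf gave 1 call over all probe sets, 1 over 100 in either group and 0 over 100 in both. The interaction gave 1, and each of these was CHR34. With p adjusted only over probe sets whose mean over the 6 knockout arrays was over 100, each of these counts was 0. CHR34 is not in that set, so its loss was fixed beforehand and says nothing of its p. Averaging the GHsf arrays named B3 gave 275 calls (133 higher, 142 lower), 200 of them shared with the 342. Other scalings moved the split of directions: quantile normalization gave 374 (190 higher, 184 lower) and median centring 331 (180 higher, 151 lower). With an offset of 32 there were 407 (145 higher, 262 lower), and 281 in place of 182 over 100 in either group. Over 100 in both groups, the 34 became 6 with the knockout arrays alone, 14 with centring, 90 with a trended prior (52 higher, 38 lower) and 125 without both GHsf arrays named B3 (108 higher, 17 lower); within the second series of array names, 13 of the 34 kept a log2 fold change over 1 in size in the same direction. The interaction count of 231 was 386 without both GHsf arrays named B3 and 147 with the trended prior.

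With 1 array left out at a time, the calls ran from 340 to 391 in all, 171 to 193 over 100 in either group, 27 to 66 over 100 in both (66 without GHsf replicate 2, 26 of them among the 34) and 242 to 278 for the interaction. The split was 78 higher and 288 lower without FHsf replicate 2, and 207 higher and 164 lower without GHsf replicate 1. HSFA2 ran from −0.24 to 1.45 and was −0.29 without both GHsf arrays named B3. Of 46 called genes with names, 24 lost the call without FHsf replicate 2, 26 without both GHsf arrays named B3, 23 with the knockout arrays alone and 11 with those arrays averaged. Uncalled markers turned sign. With 1 array left out, RCA ran from −0.12 to 0.66, VND7 from −0.012 to 1.48, HA3 from −0.076 to 0.75, CalS7 from −0.48 to 0.11, SHV2 from −1.73 to 0.68 and PDF1 from −0.22 to 0.82. Without both GHsf arrays named B3, RCA was −0.025 and MYB36 −0.11.

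Hardware positions are numbered alike in both environments. Deviations of arrays at the same position correlated at −0.05, 0.02 and 0.21, against −0.18 to 0.16 at different positions. These few values, with GHsf replicate 2 placed on B4 against its title, cannot tell whether positions pair the arrays. As a replicate block, hardware positions gave 357 calls, 161 over 100 in either group, 27 over 100 in both and 233 for the interaction, and 12 of the 46 calls were lost.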
